A study of Mus musculus with 8 samples.

Results

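The genes described here are 40 genes of the amino acid and stress response that the transcription factor ATF4 directs. They were chosen by name from the published biology of this response, with earlier results of these data known. They comprise 7 transcription regulators, 7 stress effectors, 10 enzymes of amino acid and one-carbon synthesis, 8 amino acid transporters and 8 cytosolic tRNA synthetases. Of the 40, 38 had a probe set that the platform table assigns to that symbol alone, Mars under its current symbol Mars1. Aars had a probe set shared with another gene, and Aars and Pycr1 were not analysed here. A cystine transporter gene, Slc7a11, stayed below the filter on dim signals, which left 37 members among the 11128 genes tested. Transcripts were measured on 8 mouse gene expression arrays, 1 per sample, with 2 biological replicates in each of 4 groups. All cells were naive CD4+ T cells stimulated through CD3 and CD28 and cultured with IL-1, IL-6 and IL-23 toward the pathogenic Th17 fate. In the first experiment, SRC-3-deficient cells, whose source was labelled SRC-3 (f/f) mice, were set beside cells of SRC-3 WT mice. SRC-3 is a coactivator of nuclear receptors, and the labels used here name no Cre driver for the floxed gene. In the second, cells of RORgt (-/-) mice were set beside cells of RORgt WT mice. RORγt is the nuclear receptor that directs Th17 differentiation. Age and sex of the mice are not given in the sources used here, nor is it said whether replicates were different animals, and p-values therefore reflect the spread among these samples. Cells of the design that were not polarised to Th17 are not analysed here.

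ATF4 is a bZIP factor whose own mRNA is translated more when the initiation factor eIF2α is phosphorylated, by kinases that sense missing amino acids, stress of the endoplasmic reticulum, heme shortage or double-stranded RNA. Much of its control is therefore translational, and the level of Atf4 mRNA does not report the level of the protein. As a dimer with C/EBP family members it binds a composite element and raises genes for amino acid uptake, serine, glycine and asparagine synthesis and tRNA charging, and it also raises inhibitors that damp the response. Activated T cells need amino acid uptake and one-carbon metabolism to grow, and ATF4 takes part in that metabolic programme.

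The composite element of ATF4 and C/EBP proteins can be written TGATGNAA, and it was searched on both strands of RefSeq promoter windows of GRCm38.p6, which run from 250 bases before to 50 bases after a start. Windows were found for 34 of the 40 members, and 12 of these members (35.3%) held the letters, beside 4.51% of the 27025 genes with a window. The members were chosen as genes of this response, so the share is a description of the list. The form TGATGCAA was held by 9 of the 34 members and by 1.03% of all genes. Stretches around the match are shown for 6 members, 4 that were lower without RORγt (Atf3, Chac1, Nupr1 and Gars) and 2 that did not pass the test (Asns and Vldlr), because the letters are shared by both kinds. Each stretch is on the gene's strand, 5′ to 3′. Capitals mark the match, which in all but Asns lies on the other strand and is printed as its reverse complement.
Atf3: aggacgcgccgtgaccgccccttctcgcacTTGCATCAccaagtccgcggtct
Chac1: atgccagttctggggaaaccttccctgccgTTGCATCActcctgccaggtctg
Nupr1: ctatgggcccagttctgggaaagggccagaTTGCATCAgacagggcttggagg
Gars: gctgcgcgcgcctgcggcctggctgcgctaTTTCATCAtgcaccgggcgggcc
Asns: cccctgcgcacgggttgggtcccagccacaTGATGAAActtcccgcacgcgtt
Vldlr: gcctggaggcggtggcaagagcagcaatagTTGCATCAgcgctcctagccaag
The stretches lie at chr1:191183421-191183473 (minus strand), chr2:119351019-119351071 (plus strand), chr7:126625558-126625610 (minus strand), chr6:55037941-55037993 (plus strand), chr6:7693210-7693262 (minus strand) and chr19:27216790-27216842 (plus strand). The first base of the match lay 110 bases before the start in Atf3 and Nupr1, 193 in Chac1, 30 in Gars, 23 in Asns and 200 in Vldlr. Half-sites of ROR receptors were searched in the same windows. The letters TAGGTCA were in 0 of the 34 members and 2.97% of all genes, and TGGGTCA was in 4 members (Aldh18a1, Cebpg, Ddit3 and Slc3a2) and 4.57% of all genes. A match is not evidence of binding, and no match says only that these letters are not in this window.

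The cultures carried the T cell genes of their label, and all 4 Th17 genes tested were called lower without RORγt. All 7 measured T cell markers reached the filter, with mean log2 signals between 12.84 and 13.03 on the 8 arrays. Il17a, the gene of the signature cytokine, had a log2 signal of 7.52 and 7.16 without RORγt against 11.63 and 11.27 in its wild type. Without SRC-3, 1 of the 4 Th17 genes was called lower, Il17f (−1.03, limma adjusted p = 0.0347). That call was lost with the 4 arrays alone or with array weights. Il17a did not pass there (−1.10, adjusted p = 0.0567), and 1 of the 4 values was above 0. Ncoa3, the gene of SRC-3, gave 11.15 and 10.97 in cells labelled SRC-3-deficient against 11.76 and 11.53 in their wild type (−0.58, adjusted p = 0.0567). Of markers of other cells, 0 of 6 myeloid genes and 0 of 4 dendritic cell genes reached the filter value of 7.85 on any array. Of 6 B cell genes 3 reached it on at least 1 array, and the mean of the list was 7.26 and 7.45 in RORγt-deficient cells against 7.62 and 7.43 in their wild type. Among them Ebf1 was lower without RORγt (−1.33, adjusted p = 0.0131), a call lost without any 1 of the 4 arrays of that comparison (adjusted p between 0.0631 and 0.0923). Of 4 NK genes 1 reached it, Klrd1 (log2 fold change 1.90 without RORγt, adjusted p = 0.000485), and the mean of the list was 6.67 and 6.54 in deficient against 6.11 and 6.08 in wild-type cells. Of 2 CD8 T cell genes 1 reached it, Cd8b1, with 8.29 to 9.14 over the 8 arrays. Its deficient arrays lay above their wild type in both experiments (0.42 without SRC-3, limma adjusted p = 0.133, and 0.18 without RORγt, 0.229). Such a position was held by 23.0% and 35.8% of all genes. The sex marker Xist was 6.37 and 6.08 in RORγt-deficient cells against 12.55 and 12.76 in their wild type, so sex and genotype cannot be told apart in that comparison. Low Xist also marked deficient replicate 1 of the SRC-3 experiment (7.10, beside 13.52 to 13.65). The part of sex and of these markers in the results below was not tested. In bulk samples, fewer cells of a kind and less RNA per cell cannot be told apart.

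Cells without RORγt had lower signals for much of the ATF4 programme. Of the 37 members tested, 17 fell, 1 rose (Wars) and 19 did not pass the test (limma, adjusted p under 0.05 over all 11128 genes). Of all genes tested, 9.37% were called lower and 10.0% higher in this comparison. Because the list was written with earlier results of these data known, these shares are a description. The 17 fell to between 0.598 (Sesn2) and 0.856 (Slc1a5) of their wild-type level, so each change was small. The median log2 fold change of the 37 was −0.26, beside 0.00 for all genes, and 33 of the 37 values were below 0. Both deficient arrays lay below both wild-type arrays for 32 members (34.2% of all genes did so) and above them for 1 (35.8% of all genes). Nupr1 passed the filter through the wild-type arrays of this comparison and 1 array of the SRC-3 experiment. Among the 36 members that reached the filter on all 4 arrays of the comparison, 16 fell and 1 rose. None of the members changed by 2-fold or more. Called changes of that size were rare among all genes too, with 122 of the 11128 tested.

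**Figure D1:**
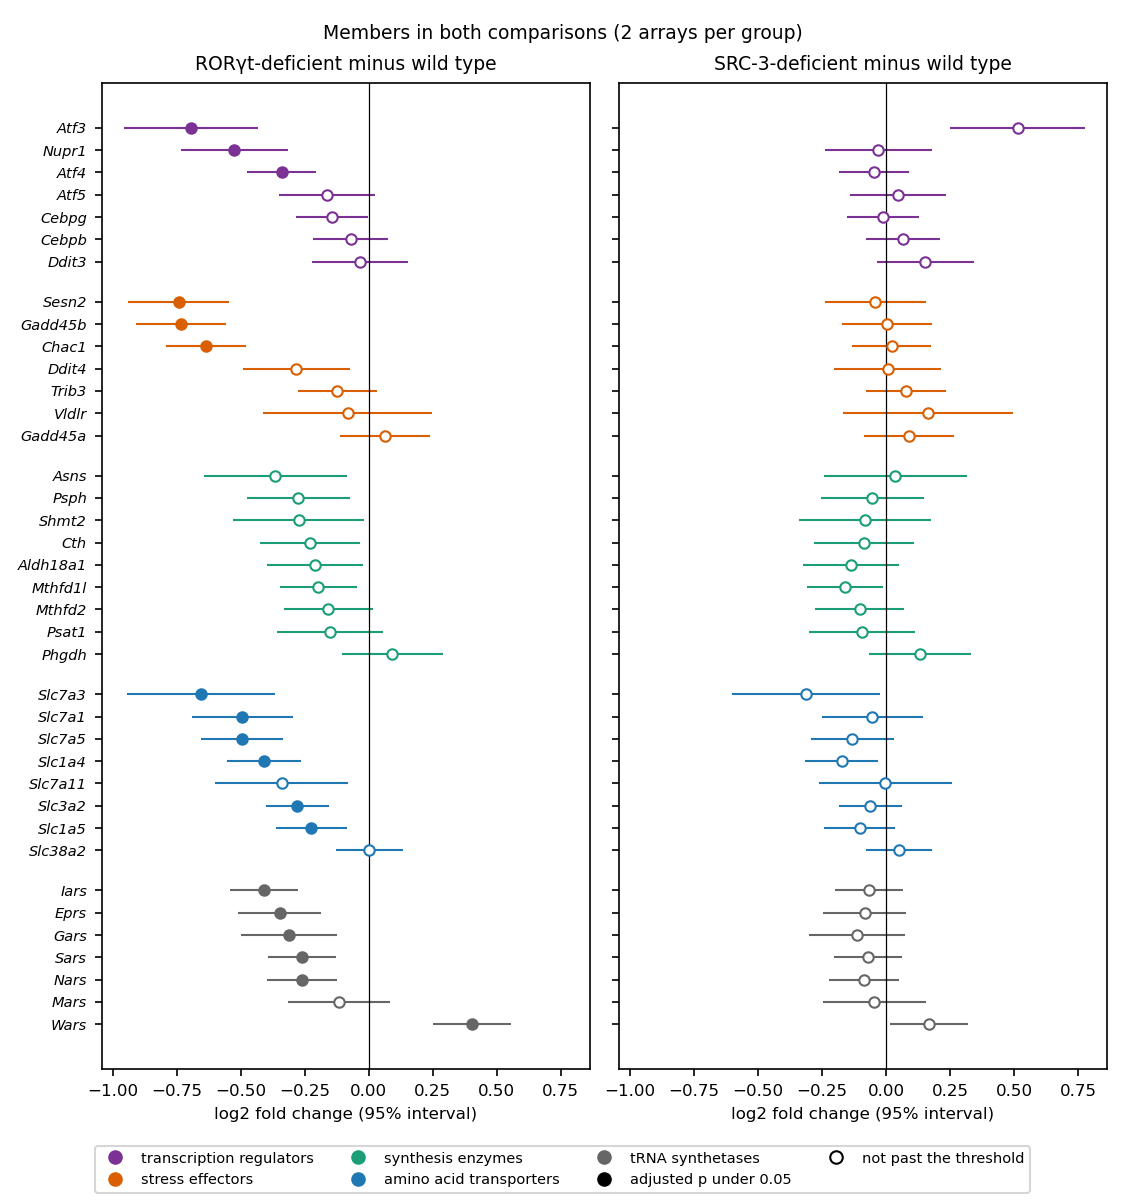
Log2 fold change of the 38 members with a probe set, deficient minus wild type, in the RORγt comparison (left) and the SRC-3 comparison (right), with the 95% interval of the moderated fit and 2 arrays per group. Filled points passed an adjusted p of 0.05: 17 on the left lie below 0 and Wars above it, and no point on the right is filled.

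The count rests on few arrays. With the 4 arrays of this comparison fitted alone 24 members were lower (13.9% of all genes), and with array weights 25 (15.5%). Without RORγt-deficient replicate 1 it was 6 members lower (1.82% of all genes were lower), without deficient replicate 2 it was 11 (4.75%), without wild-type replicate 1 it was 8 (2.66%) and without wild-type replicate 2 it was 5 (2.33%). Sesn2, Gadd45b, Chac1, Slc7a5 and Iars were past the threshold under each of the alternatives in which they were measured.

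Among the transcription regulators, 3 of 7 fell. Atf4 itself gave log2 signals of 9.60 and 9.64 in deficient cells against 9.92 and 10.01 in wild-type cells. The deficient pair was the lowest of the 8 arrays, and the fitted level was 0.79 of the wild type (log2 fold change −0.34, SE 0.06, adjusted p = 0.00833). Atf3, the gene of a stress-induced repressor of the same bZIP family, gave 9.30 and 9.34 in deficient cells and 9.88 and 10.14 in wild-type cells. It fell to 0.618 (−0.69, SE 0.11, adjusted p = 0.00725). Nupr1, which encodes a small stress-induced chromatin protein, gave 7.72 and 7.74 beside 8.26 and 8.25, and fell to 0.695 (−0.52, SE 0.09, adjusted p = 0.00833). Its deficient level lay below the filter value, where the size of a change is uncertain. These calls were lost without deficient replicate 1 (adjusted p of 0.0723 for Atf4, 0.0599 for Atf3 and 0.0648 for Nupr1) and without wild-type replicate 2 (0.0689, 0.0556 and 0.0621), and that of Nupr1 also without wild-type replicate 1 (0.0604). Ddit3, the gene of the pro-apoptotic factor CHOP, did not pass the test, with 9.79 and 9.79 in deficient and 9.85 and 9.80 in wild-type cells (−0.03, 95% interval −0.22 to 0.16, adjusted p = 0.814). The log2 fold change was −0.16 for Atf5 (adjusted p = 0.195) and −0.14 for Cebpg, which encodes a dimer partner of ATF4 (adjusted p = 0.138). It was −0.07 for Cebpb (adjusted p = 0.469).

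Among the stress effectors, 3 of 7 fell, and they had some of the largest changes of the members. Sesn2 encodes sestrin 2, a leucine sensor that restrains mTORC1, and gave 10.09 and 10.21 in deficient cells against 10.86 and 10.93 in wild-type cells. The level was 0.598 of the wild type (log2 fold change −0.74, SE 0.08, adjusted p = 0.00242). Gadd45b, an activator of stress kinase signalling that NF-kB also induces, gave 9.41 and 9.40 beside 10.18 and 10.10. It fell to 0.601 (−0.73, SE 0.08, adjusted p = 0.00173). Chac1 encodes an enzyme that degrades glutathione and is a sensitive marker of ATF4 activity. Its signals were 8.86 and 8.73 without RORγt and 9.44 and 9.42 with it, a fall to 0.644 (−0.63, SE 0.07, adjusted p = 0.00186). For each of these 3 genes the groups were apart by over 0.5 on the log2 scale. The other 4 did not pass. Ddit4, whose product REDD1 inhibits mTORC1, gave 11.82 and 11.92 beside 12.19 and 12.11 (−0.28, 95% interval −0.49 to −0.08, adjusted p = 0.0636). Trib3, a pseudokinase that damps ATF4, gave 8.84 and 8.87 beside 8.99 and 8.96 (−0.12, adjusted p = 0.235), so its groups were apart but close together. Vldlr, a lipoprotein receptor gene, gave −0.08 (adjusted p = 0.731), and Gadd45a, a paralogue of Gadd45b, gave 0.06 (adjusted p = 0.596).

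**Figure D2:**
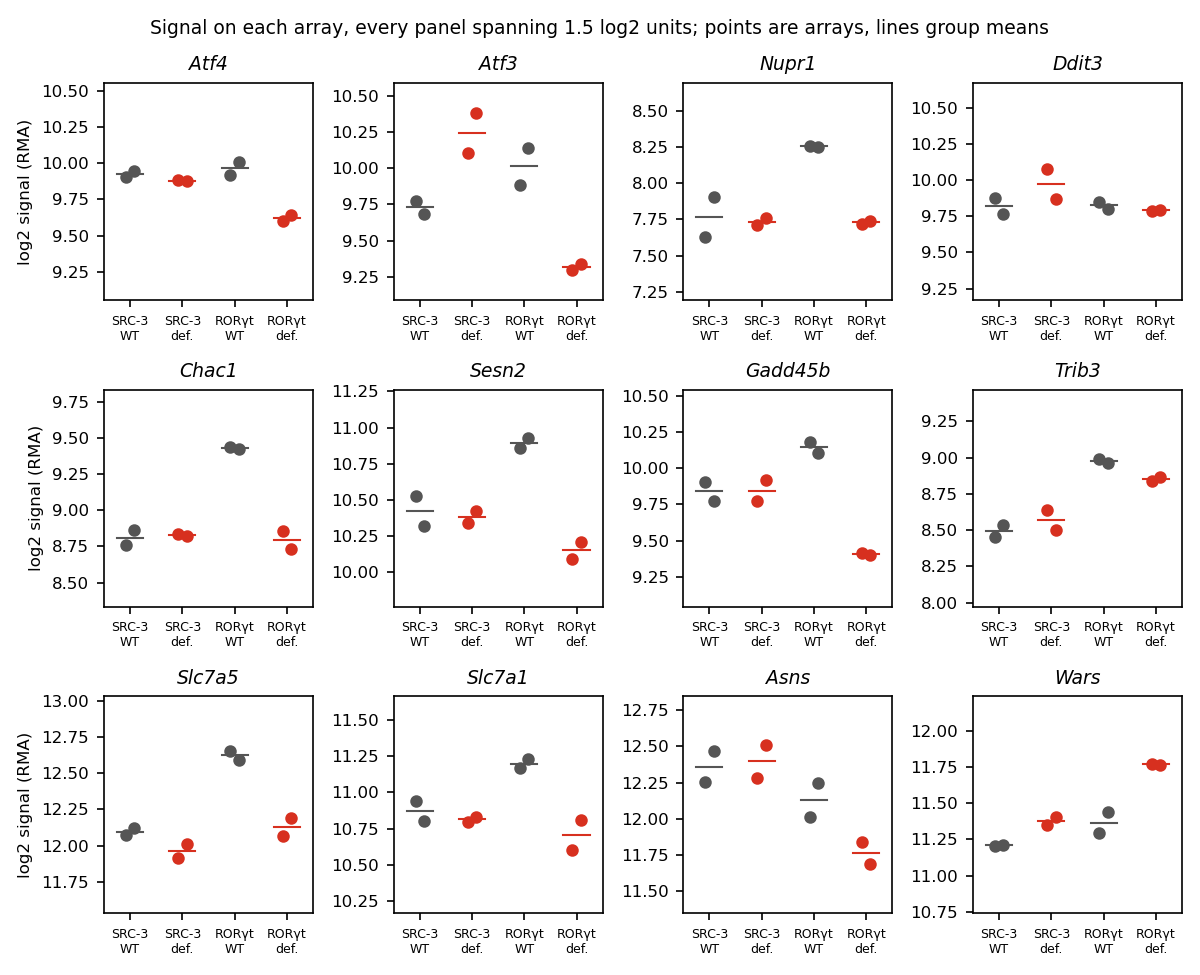
Log2 signal of 12 members on each of the 8 arrays, in wild-type (grey) and deficient (red) groups of both experiments, with lines at the group means and 1.5 log2 units on every vertical axis. The RORγt-deficient points of Chac1, Sesn2 and Gadd45b lie over 0.5 below their wild type, while Ddit3 and Trib3 move little and Wars lies higher.

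In the fit over all 8 arrays, the amino acid transporters had the highest share of members that fell, 6 of the 7 tested. Their median log2 fold change was −0.41. That rank among the roles did not hold in each fit with 1 array left out. Slc7a5 and Slc3a2 encode the light and heavy chain of LAT1, which imports leucine and other large neutral amino acids. Slc7a5 gave 12.06 and 12.19 in deficient cells against 12.65 and 12.59 in wild-type cells, a fall to 0.71 (−0.49, SE 0.07, adjusted p = 0.00481). Slc3a2 gave 12.78 and 12.79 beside 13.05 and 13.07, a fall to 0.824 (−0.28, SE 0.05, adjusted p = 0.012). Both deficient arrays lay below both wild-type arrays for either chain. The carriers of cationic amino acids Slc7a1 and Slc7a3 fell to 0.71 and 0.635 (−0.49, adjusted p = 0.00845, and −0.65, adjusted p = 0.0122). Slc7a1 gave 10.60 and 10.81 beside 11.17 and 11.23. Slc7a3 gave 8.11 and 8.21 beside 8.78 and 8.85. Slc7a3 is the 1 member on the X chromosome, and Xist moved with genotype as given above. The carriers of small neutral amino acids Slc1a4 and Slc1a5 (ASCT1 and ASCT2) fell to 0.753 and 0.856 (−0.41, adjusted p = 0.00601, and −0.22, adjusted p = 0.0369). Slc38a2, the gene of the transporter SNAT2, gave 12.73 and 12.72 in deficient and 12.72 and 12.73 in wild-type cells, so no difference was seen (0.00, 95% interval −0.13 to 0.13, adjusted p = 0.982). The cystine carrier gene Slc7a11 was below the filter on all 8 arrays, between 5.99 and 6.91, and gave −0.34 in a fit without the filter (adjusted p = 0.11). Leaving out deficient replicate 1 ended the calls of Slc7a1 (adjusted p = 0.0623), Slc7a3 (0.0882), Slc3a2 (0.0876), Slc1a4 (0.0575) and Slc1a5 (0.205), and leaving out wild-type replicate 2 did so too (0.0689, 0.0866, 0.0828, 0.0533 and 0.124). Without wild-type replicate 1 the calls of Slc7a1 (0.0512), Slc7a3 (0.0677), Slc3a2 (0.067) and Slc1a5 (0.176) were lost, and without deficient replicate 2 those of Slc3a2 (0.0656) and Slc1a5 (0.114).

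Of the 7 cytosolic tRNA synthetases tested, which load amino acids onto their tRNAs, 5 fell, 1 rose and 1 did not pass. Iars, for isoleucine, gave 12.24 and 12.25 in deficient cells against 12.62 and 12.68 in wild-type cells, a fall to 0.753 of it (a change of −0.41, SE 0.06, adjusted p = 0.0047). A second Iars probe set was lower as well, at 11.24 and 11.12 beside 11.71 and 11.68 (−0.51, adjusted p = 0.00707 over all probe sets). Eprs, for glutamate and proline, fell to 0.786 (−0.35, adjusted p = 0.0144) and Gars, for glycine, to 0.806 (−0.31, adjusted p = 0.0343). Sars, for serine, and Nars, for asparagine, both fell to 0.835 (−0.26, adjusted p = 0.0201 and 0.0219). Mars, for methionine, gave −0.12 (95% interval −0.32 to 0.08, adjusted p = 0.382). Wars went the other way. This synthetase for tryptophan is also a textbook interferon-induced gene, and it gave 11.77 and 11.76 in deficient and 11.29 and 11.44 in wild-type cells, a rise to 1.32 (0.40, SE 0.06, adjusted p = 0.00715). Sars, Nars and Gars lost their calls without any 1 of the 4 arrays of this comparison (adjusted p between 0.0821 and 0.172). Eprs did so without deficient replicate 2 (0.0879), wild-type replicate 1 (0.0521) or wild-type replicate 2 (0.104), and Wars without deficient replicate 1 (0.06) or wild-type replicate 1 (0.0527).

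The synthesis enzymes did not pass the test in any of 9 cases. Both deficient arrays lay below both wild-type arrays in 8 (34.2% of all genes did so). The lowest adjusted p was 0.0615 and the median log2 fold change −0.21. This count of 0 depends on the fit. With the 4 arrays of the comparison alone, 6 of the 9 (Asns, Psph, Shmt2, Mthfd1l, Aldh18a1 and Cth) were called lower (13.9% of all genes). With array weights the same 6 were called lower (15.5% of all genes). Asns, which makes asparagine and is a classical ATF4 target, gave 11.84 and 11.69 in deficient cells against 12.01 and 12.25 in wild-type cells. The groups were apart, but by less than the wild-type arrays differed from each other (−0.37, 95% interval −0.64 to −0.09, adjusted p = 0.0715). In the serine pathway, Phgdh, the first enzyme, gave 10.35 and 10.28 beside 10.14 and 10.31, and its groups overlapped (0.09, adjusted p = 0.493). Psat1, the second, gave −0.15 (adjusted p = 0.271), and Psph, the last, gave −0.28 (adjusted p = 0.0615). For the mitochondrial folate enzymes, which carry one-carbon units from serine, the values were −0.27 for Shmt2 (adjusted p = 0.122), −0.16 for Mthfd2 (0.179) and −0.20 for Mthfd1l (0.0696). Aldh18a1, which starts proline synthesis, gave −0.21 (adjusted p = 0.108), and Cth, which makes cysteine, gave −0.23 (adjusted p = 0.0937). A p that misses the threshold does not show that a level was unchanged, and 8 of the 19 members without a call in this comparison passed under at least 1 alternative. Those alternatives called more of all genes as well, such as 3389 with the 4 arrays alone and 3679 with array weights against 2157. One of them is only the looser threshold of 0.1. The same share was not computed for all uncalled genes.

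Members that fell were found with and without the composite element in their window. Of the 9 tested members whose window held TGATGNAA, 6 fell without RORγt, with a median log2 fold change of −0.41. Of the 22 tested members whose window did not hold it, 7 fell, with a median of −0.20. Slc7a3, Slc7a5, Slc1a5 and Nars, which fell, Wars, which rose, and Cth had no window and are in neither set. The first set includes Atf3, Chac1 and Nupr1 but also Trib3, Asns and Vldlr, which did not pass, and the second includes Sesn2 and Gadd45b. These counts are a description, and no test was made of them.

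**Figure D3:**
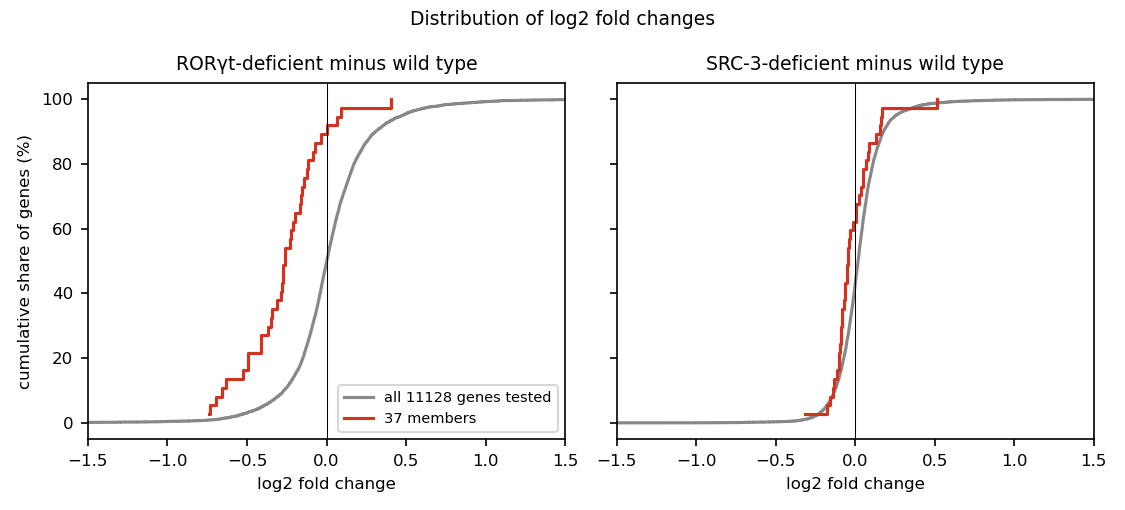
Cumulative share of genes (vertical axis, %) by log2 fold change (horizontal axis, from −1.5 to 1.5) for the 37 members (red) and all 11128 genes tested (grey). In the RORγt comparison the members' median is −0.26 and lies left of the median of all genes at 0.00, and in the SRC-3 comparison the medians are −0.05 and 0.02.

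Other genes around the pathway were read from lists chosen by name, also with earlier results of these data known. Of 16 other reported ATF4 targets tested, 6 fell without RORγt and 0 rose, with a median log2 fold change of −0.26. They included Bcat1, which transaminates branched-chain amino acids (−0.61, adjusted p = 0.0019), the oxidoreductase gene Ero1a (−0.51, adjusted p = 0.00904), the tRNA exporter gene Xpot (−0.40, adjusted p = 0.0153) and the translation inhibitor gene Eif4ebp1 (−0.25, adjusted p = 0.0222). Of 11 other cytosolic synthetases 4 fell and 0 rose (median −0.23), with the largest fall in Rars (−0.36, adjusted p = 0.0127). Some synthetases stand in both lists. Of 16 mitochondrial synthetases, which are not part of this response, 2 fell (Yars2, −0.39, and Ears2, −0.34) and 2 rose (Hars2, 0.25, and Wars2, 0.24), with a median of 0.02. Of these genes, Bcat1 kept its call without any 1 of the 4 arrays of the comparison, with adjusted p up to 0.0259. Each other one named here lost it without at least 3 of them, Rars for example with adjusted p = 0.0984 without deficient replicate 1. The number that fell was then 1 to 3 of the 16 other targets and 0 to 2 of the 11 cytosolic synthetases.

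Upstream of ATF4, 3 of 13 genes for eIF2 kinases, the exchange factor eIF2B and their brakes fell, and the median was −0.02. All 3 encode subunits of eIF2B: Eif2b3 (−0.70, adjusted p = 0.00777), Eif2b1 (−0.26, adjusted p = 0.0284) and Eif2b5 (−0.21, adjusted p = 0.0346), and each was lost without deficient replicate 1 (adjusted p = 0.0622, 0.157 and 0.202) and without either wild-type array. In the unfolded protein response of the endoplasmic reticulum, 6 of 16 genes fell and 0 rose (median −0.14). The sensor genes Ern1 (−0.89, adjusted p = 0.00115) and Atf6 (−0.52, adjusted p = 0.00522) had the lowest p and were past the threshold without any 1 of the 4 arrays. The count was 2 in each of those fits, as Edem1, Pdia6, Dnajb9 and Manf lost their calls. Of 17 genes of mTORC1 and amino acid sensing, 4 rose and 1 fell (median 0.06). Leaving out 1 of the 4 arrays gave 1 to 3 that rose and 0 that fell. Rragc, the gene that fell (−0.34), and Depdc5 lost their calls in each case (adjusted p of 0.0594 or more), and Rragd without deficient replicate 1 (0.0649) or wild-type replicate 1 (0.0604). Sesn3, a relative of Sesn2, rose while Sesn2 fell: 12.60 and 12.52 in deficient cells against 11.87 and 12.00 in wild-type cells (0.62, SE 0.08, adjusted p = 0.00321). The third relative, Sesn1, also rose (0.38, adjusted p = 0.0143), a call lost without deficient replicate 1 (adjusted p = 0.11) or wild-type replicate 2 (0.102). The folate cycle and glycine genes held 1 call, a fall of Shmt1, the cytosolic counterpart of Shmt2 (−0.48, adjusted p = 0.0105), among 7 tested (median 0.09). It was lost without deficient replicate 1 (adjusted p = 0.0812) or either wild-type array. Of 8 p53 targets 3 fell, Mdm2, Zmat3 and Phlda3, and 1 rose, Sesn1 (median −0.20). Zmat3 and Phlda3 lost their calls without any 1 of the 4 arrays (adjusted p between 0.12 and 0.168, and between 0.098 and 0.21). Mdm2 gave −0.44 (adjusted p = 0.00628), and it lost its call without deficient replicate 1 (0.0585) or wild-type replicate 2 (0.0533).

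**Figure D4:**
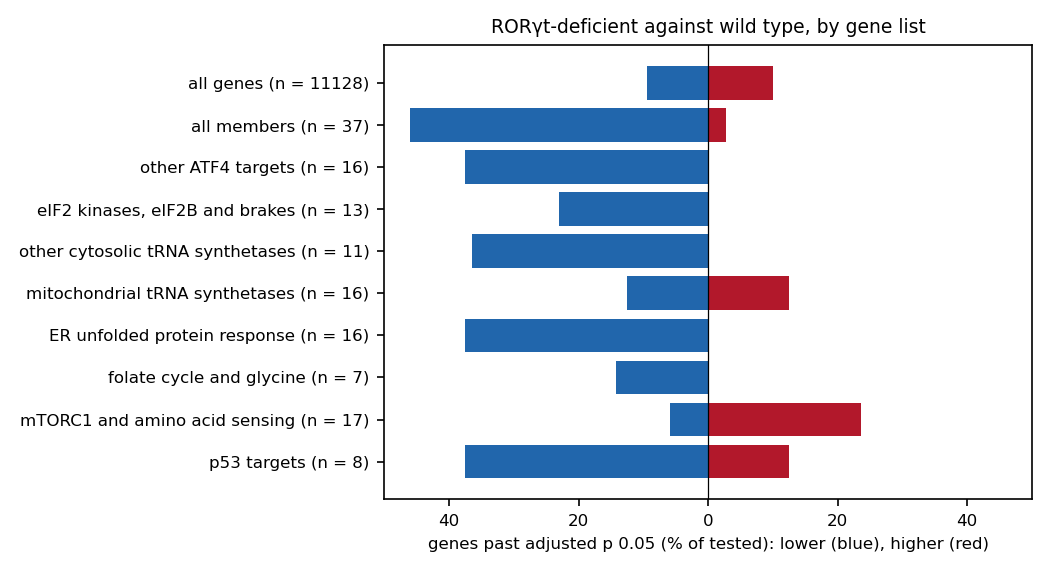
Share of the tested genes of each list (horizontal axis, %) that were called lower (blue, left) or higher (red, right) in RORγt-deficient against wild-type cells, with the number tested beside each name. All genes are called lower in 9.37% and higher in 10.0%, and the members lower in 45.9% and higher in 2.70%.

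In the SRC-3 comparison none of the 37 members passed the threshold by limma, where 0.225% of all genes did (0.189% higher and 0.0359% lower). At an unadjusted p under 0.05 there were 5 members (Atf3, Slc7a3, Slc1a4, Mthfd1l and Wars), beside 12.5% of all genes. The median log2 fold change of the members was −0.05, beside 0.02 for all genes. Both deficient arrays lay below both wild-type arrays for 12 members (14.3% of all genes) and above them for 5 (23.0% of all genes). The largest value was that of Atf3, which gave 10.11 and 10.38 in deficient cells against 9.78 and 9.68 in wild-type cells. The groups were apart (0.51, 95% interval 0.25 to 0.78, adjusted p = 0.131), and the sign was opposite to that in RORγt-deficient cells. Slc7a3 gave 8.01 and 8.19 beside 8.22 and 8.61, where the wild-type arrays differed more from each other than the groups did at their nearest (−0.31, 95% interval −0.60 to −0.02, adjusted p = 0.363).

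For most members the SRC-3 interval of this fit was narrow. Its width rests on 2 arrays per group and a spread shared with the RORγt arrays, so a larger change is not excluded. Of the 37, 35 had a 95% interval within 0.5 of 0 on the log2 scale, and the exceptions were Atf3 and Slc7a3. Atf4 gave 9.88 and 9.88 in deficient cells against 9.91 and 9.95 in wild-type cells (−0.05, 95% interval −0.18 to 0.09). Chac1 gave 8.84 and 8.82 beside 8.76 and 8.86 (0.02, −0.14 to 0.18), and Sesn2 gave 10.34 and 10.42 beside 10.53 and 10.32 (−0.04, −0.24 to 0.16). Asns gave 12.28 and 12.51 beside 12.25 and 12.47, where replicate 2 was the higher in both groups (0.04, −0.24 to 0.32). Slc7a5 gave 11.91 and 12.01 beside 12.07 and 12.12, with the deficient arrays lower (−0.13, −0.29 to 0.03). By role, the medians were 0.05 for the regulators, 0.02 for the stress effectors, −0.09 for the synthesis enzymes, −0.10 for the transporters and −0.07 for the synthetases. The lists around the pathway (other ATF4 targets, eIF2 genes, other cytosolic and mitochondrial synthetases, folate genes, the unfolded protein response, amino acid sensing and p53 targets) held 0 limma calls in this comparison. The gene nearest to the threshold in them was Pmaip1, of the pro-apoptotic NOXA (0.35, adjusted p = 0.077).

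The difference between the comparisons was tested in the same fit, RORγt minus SRC-3. Of the 37 members 4 passed (1.67% of all genes), Atf3, Gadd45b, Chac1 and Sesn2, each with a value below 0 (0.926% of all genes below and 0.746% above). For the other 33 no difference between the comparisons was shown.

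The array medians were 7.90 to 7.93 in the SRC-3 experiment and 7.76 to 7.80 in the RORγt experiment, so levels between experiments are set side by side without a test. Of the 17 members that fell without RORγt, 10 had both RORγt wild-type arrays above all 4 arrays of the SRC-3 experiment, and 9 had both RORγt-deficient arrays below all 4 of them. With each array shifted to 1 median the numbers were 13 and 8. The 17 had been picked as lower without RORγt, which favours both positions. No share over all genes was computed for these counts, so they are a description. Chac1, Nupr1, Slc7a1, Slc7a3, Slc7a5, Slc1a5, Gars and Iars were high in the RORγt wild type and not below the SRC-3 arrays in the deficient cells, on both scales. Iars stands there by its brighter probe set. Its second probe set, as deposited, gave 11.71 and 11.68 in the RORγt wild type, beside 11.70 to 11.89 on the SRC-3 arrays. The RORγt-deficient arrays of that probe set, 11.24 and 11.12, lay below all of these. Atf4, Atf3, Gadd45b, Slc3a2, Slc1a4, Sars, Nars and Eprs were below all SRC-3 arrays in the RORγt-deficient cells on both scales. Vldlr was higher in the second experiment in either genotype, with 7.78 to 8.27 in the first and 9.56 to 9.72 in the second.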

How the data were processed

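Total RNA from 8 cultures was hybridised to 8 Affymetrix arrays of 1 colour. The deposited values are log2 signals that the authors computed by RMA, and the submitters' processing notes name Affymetrix Expression Console without a version. Values ran from 3.50 to 15.03 over 35556 probe sets and were not normalized again. The 21789 probe sets with 1 symbol were named from the platform table (1621 had several symbols and 12146 none). Probe sets entered the tests when 2 or more arrays had a value of at least 7.85, the median over the table, and the brightest per symbol stood for its gene, which left 11128 genes.

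One model with a mean per group was fitted over the 8 arrays in limma 3.58.1 under R 4.3.3 (two-sided, Benjamini-Hochberg over all genes, threshold 0.05). It had 4 residual and 3.53 prior degrees of freedom. SE and 95% intervals are those of the moderated fit, and an SD of 2 arrays stands behind each group mean. The fitting code was run on simulated data with independent noise and changes larger than those of most called members. That run checks the code and not the real spread. The number of arrays limits the precision.

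The members and lists were chosen with earlier results of these data known. All members may be named, with up to 5 called genes per list by smallest p, or otherwise up to 2. Alternatives were 2 other normalizations, no filter, a stricter filter at 9.78, averaging over probe sets, a fit to only the 4 arrays compared, array weights, a robust prior with an intensity trend, a replicate block, a threshold of 0.1, and leaving out each array.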

Additional observations from a re-analysis of the deposited data

Results flagged for a closer look

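For 4 members the log2 fold change differed between the comparisons by a test of the difference itself (limma, RORγt minus SRC-3, adjusted over all genes, of which 1.67% passed). The difference was −1.21 for Atf3 (adjusted p = 0.0182), −0.74 for Gadd45b (0.0228), −0.66 for Chac1 (0.0229) and −0.70 for Sesn2 (0.0394), and in each both RORγt-deficient arrays lay below both of their wild-type arrays. Leaving out any 1 array of the RORγt experiment left 0 of these 4 calls, and leaving out SRC-3-deficient replicate 1 or 2 left 2 or 1 members past the threshold. For the other 33 members a difference between the comparisons was not shown. The cause was not tested.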

How the results depend on the processing

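With 2 arrays a group, which calls are made depends on the spread shared over all 8 arrays. Over the SRC-3 comparison limma called 25 genes, but 0 with its 4 arrays alone, 10 with array weights, 14 with the stricter filter, 47 with an intensity trend and robust prior, and 129 at a threshold of 0.1. Leaving out 1 array gave 0 to 61. Over the RORγt comparison it called 2157, but 3389 with the 4 arrays alone, 3679 with array weights and 486 to 2539 leaving out 1 array. The members lower without RORγt numbered 13 to 25 over the alternatives that keep all arrays of the comparison (24 with its 4 arrays alone, 25 with array weights) and 5 to 18 leaving out 1 array. Wars was the member called higher under each alternative that keeps all arrays, and leaving out 1 array gave 0 to 1. Members that differed between the comparisons numbered 0 to 4 leaving out 1 array, against 4. Same-numbered arrays deviated together in the SRC-3 experiment (correlation over genes 0.536) but not in the RORγt experiment (0.00174), and no label says that they were paired. With the replicate number as a block within each experiment, 301 genes were called in the SRC-3 comparison. In the RORγt comparison 3411 were called, 30.7% of all genes in either direction, beside 19.4% in the main fit. With the same block 1 member was higher without SRC-3 (Atf3, limma adjusted p = 0.0491), 24 were lower without RORγt, and 7 differed between the comparisons. How far the member counts rise beyond the rise over all genes was not tested. With this block 6 of the 9 synthesis enzymes were lower without RORγt, and in the SRC-3 comparison 3 genes of the lists around the pathway passed, Stc2 (0.49, adjusted p = 0.0221), Atf6 (−0.36, 0.0372) and Pmaip1 (0.35, 0.0419). No called member changed sign under any alternative. Of the uncalled members, 15 of 37 in the SRC-3 and 1 of 19 in the RORγt comparison changed sign under at least 1. Slc1a5 was the 1 member that lost its RORγt call under both a new quantile normalization (adjusted p = 0.0688) and a shift to 1 median (0.0592). Slc7a11 and the deficient level of Nupr1 lay near background. In each case the cause was not tested.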
